A study of Mus musculus with 6 samples.

Results

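The 9 genes followed here, Rgs5, Rgs4, Kcnj8, Abcc9, Higd1b, Ndufa4l2, Cox4i2, Cspg4 and Vtn, are widely used to recognise pericytes, and each was taken by its symbol from the list of 41605 genes that all 6 libraries share. They were measured in single cells of the mouse sciatic nerve in newborns on day 1 after birth (P1) and in adults on day 60 (P60), with 3 libraries per age. At both ages the mice carried P0Cre, which is active in Schwann cells, the Cre-dependent reporter ReYFP in the Rosa26 locus and a DsRed transgene under the broadly active CAG promoter, on the C57bl/6J background. Animals of both sexes were pooled into each suspension and were not perfused. DsRed-positive cells were sorted from the dissociated nerves, and at P1 a part of the YFP-positive Schwann cells was removed in the sort, so shares of cell types are not compared here.

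Pericytes sit on capillaries inside the basement membrane they share with the endothelium, while vascular smooth muscle cells wrap arterioles and venules in a contractile layer; both are called mural cells. Rgs5 and Rgs4 are GTPase-activating proteins that shorten signals from G protein-coupled receptors. Kcnj8 encodes Kir6.1, the pore of an ATP-sensitive potassium channel, and Abcc9 encodes SUR2, its regulatory subunit. Higd1b is a small mitochondrial membrane protein of the hypoxia-inducible domain family, Ndufa4l2 is related to a respiratory chain subunit and is known to be induced in hypoxia, and Cox4i2 is the alternative form of subunit 4 of cytochrome c oxidase. Cspg4, also called NG2, is a transmembrane proteoglycan, and Vtn encodes vitronectin, a secreted ligand of integrins.

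The members lie on 6 chromosomes, and 4 of them form adjacent pairs. Rgs5 (ENSMUSG00000026678, chromosome 1, 169655501 to 169695813, plus strand) and Rgs4 (ENSMUSG00000038530, chromosome 1, 169741477 to 169747642, minus strand) are 45663 bp apart, and Kcnj8 (ENSMUSG00000030247, chromosome 6, 142564837 to 142571614, minus strand) and Abcc9 (ENSMUSG00000030249, chromosome 6, 142587862 to 142702315, minus strand) are 16247 bp apart, in both cases with 0 protein-coding genes between them (GRCm38, GENCODE M21). Higd1b (ENSMUSG00000020928, chromosome 11, 102835849 to 102838040) and Vtn (ENSMUSG00000017344, chromosome 11, 78499091 to 78502324) share a chromosome only. Ndufa4l2 (ENSMUSG00000040280) lies on chromosome 10 at 127514967 to 127517154, Cox4i2 (ENSMUSG00000009876) on chromosome 2 at 152754173 to 152765037 and Cspg4 (ENSMUSG00000032911) on chromosome 9 at 56865033 to 56899870. Ndufa4l2 overlaps Shmt2 on the opposite strand, and use of the strand in counting is not given in the sources used here; Shmt2 stood at 42.7 ± 4.82 CPM in P1 pericyte-like cells (SD, n = 3 libraries), against 1580 ± 97.5 CPM for Ndufa4l2. Abcc9 overlaps 5330439B14Rik, which had 0 CPM in the pericyte-like and smooth muscle-like cells of both ages.

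The adjacent pairs are shown with the 250 bases before their start sites because the results below turn on them: in smooth muscle-like cells the potassium channel pair fell together with age, while Rgs5 fell and Rgs4 rose. The sequences are RefSeq's for GRCm38.p6, at chr1:169655251-169655500 (Rgs5), chr1:169747643-169747892 (Rgs4), chr6:142571615-142571864 (Kcnj8) and chr6:142702275-142702524 (Abcc9), each printed 5′ to 3′ on the strand of the gene.
Rgs5: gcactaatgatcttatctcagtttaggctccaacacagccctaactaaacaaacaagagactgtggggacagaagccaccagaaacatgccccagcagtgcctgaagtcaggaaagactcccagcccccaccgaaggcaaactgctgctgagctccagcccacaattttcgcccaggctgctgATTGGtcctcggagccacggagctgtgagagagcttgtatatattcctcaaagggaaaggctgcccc
Rgs4: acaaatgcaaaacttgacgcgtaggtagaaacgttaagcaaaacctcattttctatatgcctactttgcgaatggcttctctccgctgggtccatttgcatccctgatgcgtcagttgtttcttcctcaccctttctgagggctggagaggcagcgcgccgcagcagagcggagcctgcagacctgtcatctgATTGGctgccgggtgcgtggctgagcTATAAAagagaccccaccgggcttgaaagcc
Kcnj8: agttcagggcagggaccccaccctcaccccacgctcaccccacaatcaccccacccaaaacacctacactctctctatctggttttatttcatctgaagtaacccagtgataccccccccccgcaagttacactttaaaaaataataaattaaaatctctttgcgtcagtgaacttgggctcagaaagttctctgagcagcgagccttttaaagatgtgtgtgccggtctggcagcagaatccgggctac
Abcc9: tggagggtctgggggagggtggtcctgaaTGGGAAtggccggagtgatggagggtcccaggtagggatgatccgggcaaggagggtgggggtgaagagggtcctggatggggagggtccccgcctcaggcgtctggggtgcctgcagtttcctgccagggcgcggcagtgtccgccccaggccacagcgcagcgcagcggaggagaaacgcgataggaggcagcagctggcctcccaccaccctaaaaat
Capitals mark matches on either strand to 3 of the motifs searched, which were the CCAAT box, the TATA box (letters TATAAA) and the core bound by the Notch effector RBPJ (letters TGGGAA). The core of hypoxia response elements (letters ACGTG) and the CArG box bound by serum response factor were also searched, and no match overlapped another in these windows. Rgs5 and Rgs4 each had CCAAT on the opposite strand, at -67 to -63 and -57 to -53 from the start site, which 33.8% of the 32807 RefSeq promoter windows have on either strand. Rgs4 had TATAAA at -31 to -26 (12.4% of windows), Abcc9 had TGGGAA at -221 to -216 (21.6%), and the window of Kcnj8 held none of the searched motifs. ACGTG was in 16.6% and the CArG box in 1.47% of all windows and in none of the 4 shown. A match is a description of the letters and not of a binding site. Of the other members, Cspg4 and Vtn have an entry in the promoter table used, and Higd1b, Ndufa4l2 and Cox4i2 were not matched there.

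Libraries held 3467 to 4609 barcodes and 20203440 to 30334608 UMIs (unique molecular identifiers, each standing for a captured RNA molecule), and 3435 to 4586 cells with 500 to 5000 genes were kept. Median UMIs per cell were 6077 to 6840 in the P1 libraries and 3627 to 5561 in the P60 libraries, of which replicate 3 was the shallowest. Pairs of libraries shared 14 to 33 barcodes. Cells were clustered without the 9 members, so that no class was built on them, and classes were named from other markers; since the markers vary with the members, a class set against another is a description and was not tested. Pericyte-like cells numbered 389 at P1 and 290 at P60, and smooth muscle-like cells 129 and 396. Cells of mural clusters that also had endothelial markers (230, at P60 only) or fibroblast markers (45 and 21) were held apart. So were cycling mural cells (38, at P1 only) and 137 P60 mural cells in clusters with over 18% mitochondrial counts, 118 of them in replicate 3. The study describes a P60 cluster with both Pecam1 and Pdgfrb. It holds doublets of an endothelial cell and a pericyte to be the likelier source, without excluding single cells with both. Doublets were not tested for here. P60 smooth muscle-like cells came from a cluster of 86, 88 and 36 cells in replicates 1, 2 and 3, led by Nrip2, Pln and Tesc, and a cluster of 17, 12 and 157 cells, in which the stress-response genes Cebpb, Atf3 and Nr4a2 were among those that set it apart from other mural cells. Smooth muscle-like results are therefore also given without P60 replicate 3 and without the cluster that it mostly filled.

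Pdgfrb and Myh11, from the marker lists by which the classes were named, describe the classes and are no separate check of the names. Pdgfrb, the receptor that pericytes need for recruitment, stood at 579 ± 29.4 CPM at P1 and 768 ± 103 CPM at P60 in pericyte-like cells and at 191 ± 39.4 and 231 ± 30.6 CPM in smooth muscle-like cells. Myh11, the smooth muscle myosin heavy chain, stood at 38.2 ± 11.3 and 298 ± 125 CPM in pericyte-like cells and at 813 ± 65.6 and 2140 ± 421 CPM in smooth muscle-like cells. Atp13a5 of the pericyte list was at 0 in both classes and ages. The summed level of the 11 smooth muscle markers in pericyte-like cells was 4400 to 4920 CPM in P1 libraries and 7910 to 11400 CPM in P60 libraries, that of the 9 endothelial markers was 386 to 414 and 419 to 714 CPM, that of the 7 perineurial markers 17.7 to 25.9 and 62.9 to 105 CPM and that of the 8 immune markers 20.2 to 40.2 and 142 to 159 CPM; their part in the age differences was not tested.

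Pericyte-like cells had the highest mean level of all 9 members among the pericyte-like, smooth muscle-like, endothelial, fibroblast, perineurial, Schwann and immune classes at P1, and of 6 members at P60. Of the mural cells held apart at P1, cycling cells (52.9, 48.1 and 87.2 CPM) and cells with fibroblast markers (71.1, 97.7 and 81.2 CPM) had a higher mean of Cspg4 than pericyte-like cells, from 4 to 12 UMIs per library, and overlapped them. For 7 members at P1 and 4 at P60 every pericyte-like library lay above every library of the next class. The matching share over all genes was not computed. The members are genes already used to recognise pericytes, so these counts are descriptions. The level is given in CPM, the UMIs of a gene summed over the cells of a class in a library and scaled by the total UMIs of those cells. Beside it stands the share of cells with at least 1 UMI after each cell was thinned to 1500 UMIs, because P60 cells were shallower; 286 of the 290 P60 pericyte-like cells and all P1 ones reached that depth. Immune cells, which are not known to use these genes, give the background share in the same suspensions.

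**Figure D1:**
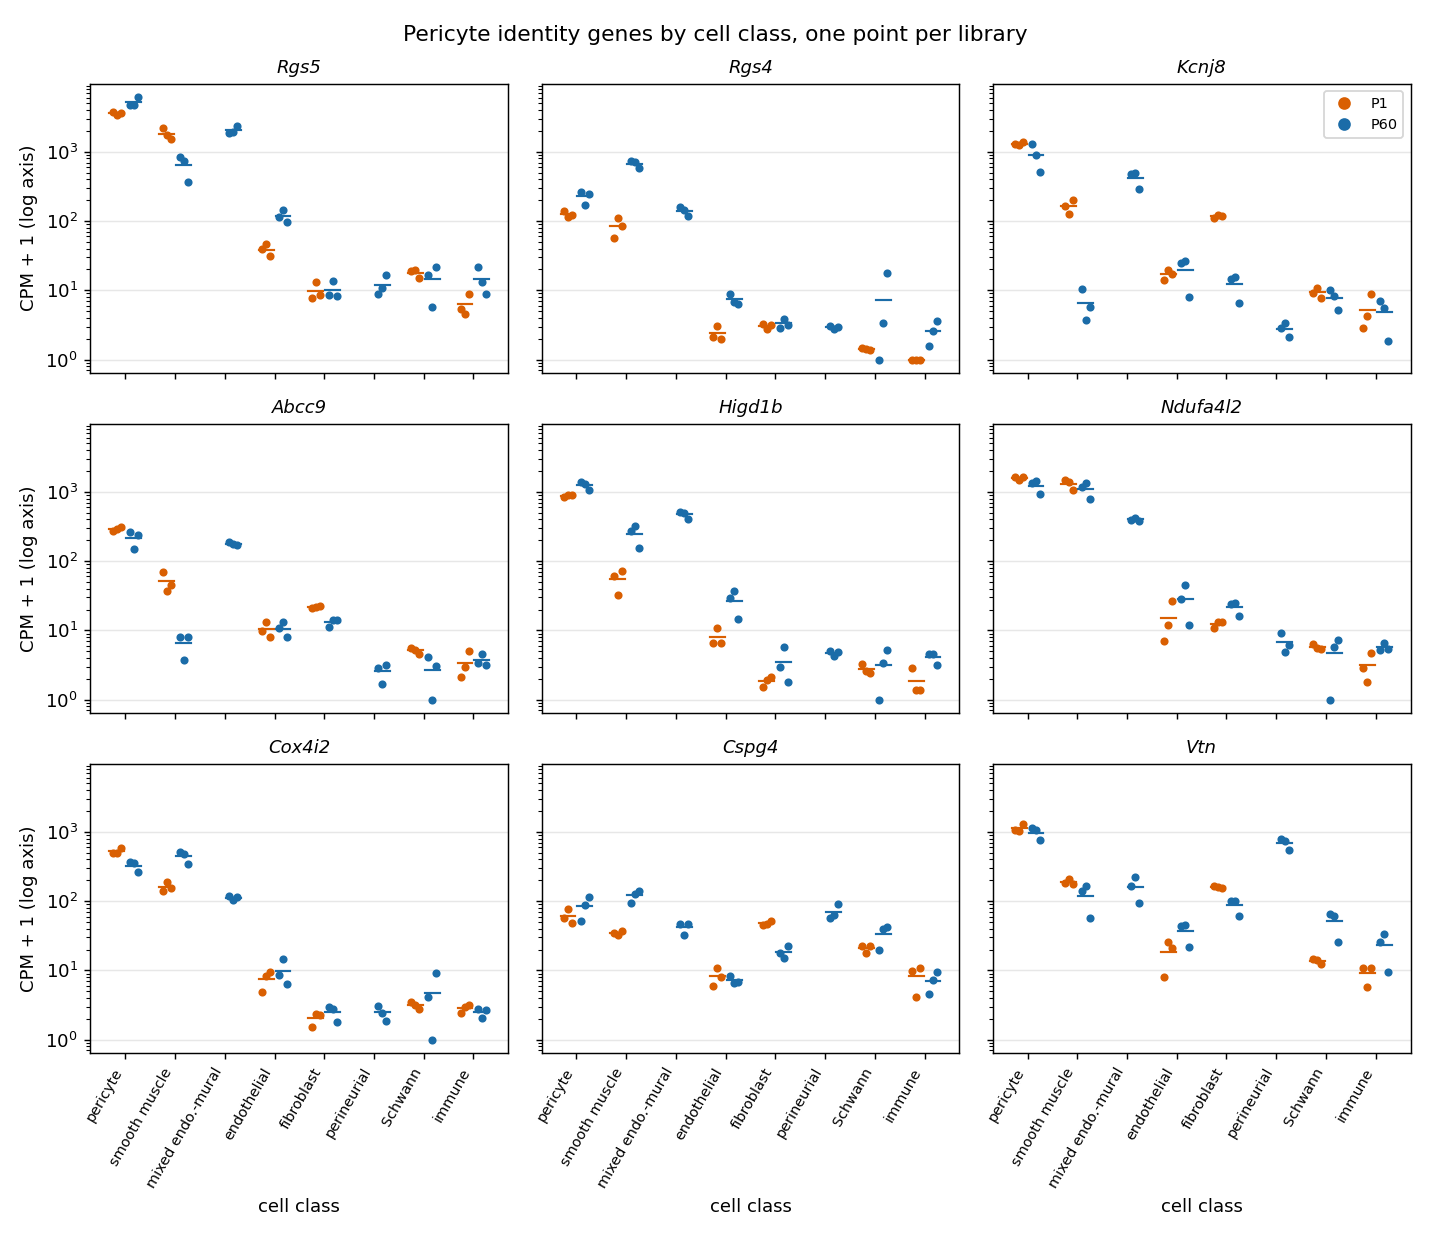
Level of each of the 9 genes by cell class, as CPM + 1 on a log axis, with 1 point per library and a bar at the mean of the libraries, P1 in orange and P60 in blue. Rgs4 and Cox4i2 are highest in smooth muscle-like cells at P60, Kcnj8 and Abcc9 fall there to the level of non-mural cells, and Vtn is nearly as high in P60 perineurial cells as in pericyte-like cells.

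Among the regulators of G protein signalling, Rgs5 was high in both mural classes at P1 and, at P60, higher in pericyte-like than in smooth muscle-like cells by a wider margin. In P1 pericyte-like cells it stood at 3715, 3412 and 3658 CPM in replicates 1, 2 and 3, and in P60 pericyte-like cells at 4669, 4665 and 6218 CPM. All P60 libraries were above all P1 libraries. In smooth muscle-like cells Rgs5 stood at 2208, 1747 and 1543 CPM at P1 and at 833, 736 and 370 CPM at P60, so that the pericyte-like mean was 1.96-fold that of smooth muscle-like cells at P1 and 8.02-fold at P60. After thinning a UMI of Rgs5 was in 97.3% ± 1.68 (P1) and 93.1% ± 1.47 (P60) of pericyte-like cells and in 65.9% ± 6.93 and 32.8% ± 8.49 of smooth muscle-like cells (SD, n = 3 libraries). Immune cells gave 0.956% ± 0.177 and 1.5% ± 0.653.

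Rgs4 had the opposite order at P60. It stood at 138, 114 and 121 CPM in P1 pericyte-like cells and at 262, 172 and 246 CPM in P60 pericyte-like cells. In smooth muscle-like cells it stood at 55.6, 110 and 85.0 CPM at P1 and at 729, 706 and 586 CPM at P60, where every library was above every pericyte-like library. After thinning the shares with Rgs4 were 15.3% ± 2.22 and 20.6% ± 2.98 of P1 and P60 pericyte-like cells, against 8.62% ± 6.97 and 55.4% ± 1.39 of smooth muscle-like cells. In P1 immune cells it had 0 UMIs, and in P60 immune cells 1.58 ± 0.999 CPM.

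The potassium channel pair was higher in pericyte-like than in smooth muscle-like cells in every library at both ages, and at P60 was at most 9.31 CPM in the latter. Kcnj8 stood at 1297, 1241 and 1369 CPM in P1 pericyte-like cells and at 1285, 910 and 518 CPM in P60 ones, with replicate 3 the lowest and replicate 1 within the P1 range. In smooth muscle-like cells it stood at 163, 126 and 197 CPM at P1, and at 9.31, 2.72 and 4.74 CPM at P60, from 9 UMIs in all. Abcc9 stood at 272, 286 and 309 CPM in P1 pericyte-like cells and at 258, 150 and 234 CPM in P60 pericyte-like cells, and fell in smooth muscle-like cells from 68.5, 36.6 and 44.7 CPM to 6.98, 2.72 and 7.12 CPM, from 10 UMIs. Kcnj8 was found in 79.7% ± 4.91 and 63.0% ± 12.2 of P1 and P60 pericyte-like cells after thinning, in 20.2% ± 3.13 of P1 smooth muscle-like cells, and in 0.347% ± 0.601 of P60 smooth muscle-like cells, under the 0.676% ± 0.599 of P60 immune cells. Abcc9 was found in 0.844% ± 0.789 of P60 smooth muscle-like and 0.222% ± 0.385 of P60 immune cells, and the libraries overlapped (0% to 1.56% against 0% to 0.667%). Its level there also overlapped that of immune cells (2.16 to 3.61 CPM), with a higher mean (5.61 against 2.71 CPM). The Kcnj8 share is read as background, and that of Abcc9 was not told apart from it.

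Of the mitochondrial members, Higd1b was higher in pericyte-like than in smooth muscle-like cells at both ages, Cox4i2 at P1 only, and Ndufa4l2 at neither without overlap. Ndufa4l2 stood at 1661, 1473 and 1610 CPM in P1 pericyte-like cells and at 1321, 1436 and 937 CPM in P60 ones, and at 1489, 1370 and 1051 CPM and 1157, 1317 and 786 CPM in smooth muscle-like cells of the same ages. The classes overlapped at both ages. Cox4i2 stood at 499, 498 and 578 CPM in P1 pericyte-like cells, above the 137, 188 and 152 CPM of smooth muscle-like cells, and at P60 at 365, 349 and 260 CPM, overlapping the 519, 475 and 346 CPM of smooth muscle-like cells. Higd1b stood at 846, 912 and 893 CPM and at 1404, 1291 and 1069 CPM in P1 and P60 pericyte-like cells, against 59.9, 31.4 and 71.5 CPM and 275, 318 and 155 CPM in smooth muscle-like cells. The pericyte-like mean of Higd1b was 16.3-fold that of smooth muscle-like cells at P1 and 5.03-fold at P60. After thinning Ndufa4l2 was found in 87.8% ± 6.44 and 73.8% ± 6.60 of pericyte-like and in 81.3% ± 6.40 and 69.4% ± 6.78 of smooth muscle-like cells, and Cox4i2 in 45.3% ± 2.43 and 31.7% ± 4.76 against 21.0% ± 2.57 and 45.3% ± 6.48. Among the named classes outside mural cells both Cox4i2 (8.83 CPM) and Higd1b (25.9 CPM) were highest in P60 endothelial cells.

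**Figure D2:**
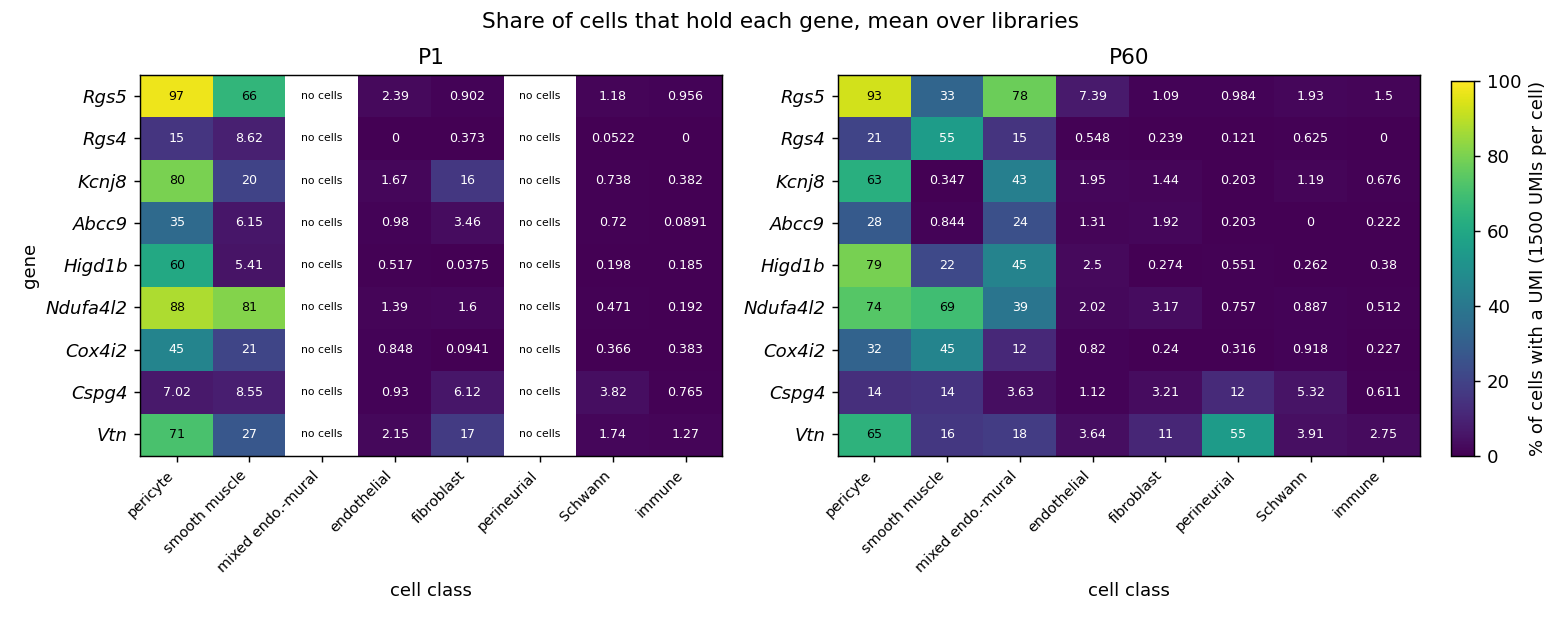
Percent of cells with at least 1 UMI of each gene after thinning to 1500 UMIs per cell, as the mean over libraries, by cell class (columns) and gene (rows), P1 left and P60 right; blank columns held no cells of the class. Shares in immune cells are at most 2.75%, which Vtn reaches at P60.

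The surface and matrix members, Cspg4 and Vtn, were also found in fibroblasts and perineurial cells, and Cspg4 in Schwann cells. Among P1 Schwann clusters, Cspg4 was at 102 ± 24.2 CPM in a cluster of 647 cells with 15.2% mitochondrial counts. In the others it was at 4.72 ± 1.51 to 12.8 ± 2.58 CPM. The part of the mitochondrial share in this was not tested. Cspg4 stood at 57.0, 75.6 and 46.9 CPM in P1 and at 51.6, 85.9 and 114 CPM in P60 pericyte-like cells, overlapping the 43.7, 46.0 and 50.7 CPM of P1 fibroblasts. In P60 smooth muscle-like cells it stood at 93.1, 128 and 140 CPM. After thinning 7.02% ± 2.25 (P1) and 13.5% ± 2.02 (P60) of pericyte-like cells held it, and 12.1% ± 2.37 of P60 perineurial cells. Vtn stood at 1078, 1018 and 1301 CPM in P1 pericyte-like cells and at 1134, 1052 and 754 CPM in P60 ones, against 180, 209 and 174 CPM and 137, 166 and 55.7 CPM in smooth muscle-like cells. It was found in 71.1% ± 3.17 and 64.6% ± 11.1 of pericyte-like cells after thinning.

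A pericyte-like cell held several members at once. At 1500 UMIs it had a UMI of 4.98 ± 0.085 of the 9 genes on average at P1 and of 4.68 ± 0.344 at P60 (SD, n = 3 libraries), and 97.4% ± 1.08 and 91.6% ± 5.75 of the cells held 3 or more. Smooth muscle-like cells held 2.45 ± 0.172 and 2.57 ± 0.262, mixed endothelial-mural cells 2.76 ± 0.358, and P60 perineurial cells 0.701 ± 0.0372, while the mean in P1 immune cells was 0.0422 ± 0.0142. The mixed endothelial-mural cells had a median of 7677.5 UMIs against 3043 in P60 pericyte-like cells, and Rgs5 at 2050 ± 275 CPM, Kcnj8 at 415 ± 111 CPM and Abcc9 at 178 ± 10.6 CPM. The pericyte-like mean of Abcc9 was 1.2-fold that of the mixed cells, and the pericyte-like mean of Vtn was 6.13-fold their 160 ± 65.3 CPM.

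**Figure D3:**
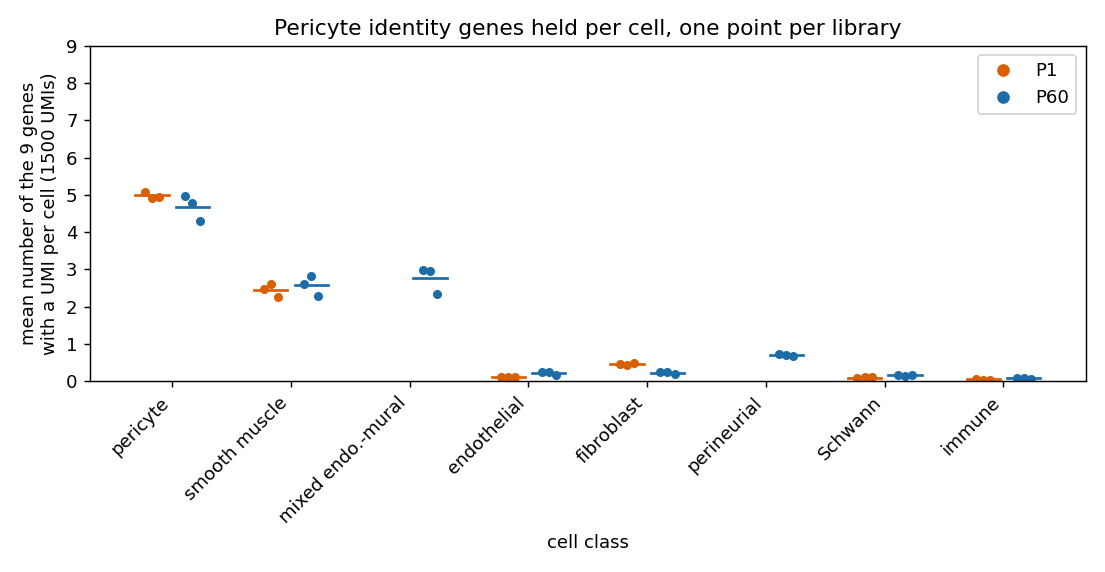
Mean number of the 9 genes with at least 1 UMI per cell, after thinning to 1500 UMIs, by cell class, with 1 point per library and a bar at their mean (P1 orange, P60 blue). Pericyte-like libraries lie between 4.30 and 5.08 and smooth muscle-like libraries do not reach 3.

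Pericyte-like cells were themselves made of 2 clusters at each age, and the members did not all differ between them in the same direction. At P1, the larger cluster (278 cells) had Vtn at 1390, 1250 and 1690 CPM and the smaller (111 cells) at 445, 372 and 549 CPM. The smaller had Rgs16 and Steap4 among its leading genes against all other cells. Fst, Mt2, Ccl2, Il6 and Rgs16 were among the genes that set it apart from other mural cells. At P60, the cluster of 180 cells led by Ifitm1 had Vtn at 1430, 1280 and 951 CPM and the cluster of 110 cells with Id4 among its leading genes at 705, 696 and 425 CPM. Ndufa4l2 followed the same order, at 1700 ± 89.0 against 1310 ± 172 CPM at P1 and 1480 ± 286 against 838 ± 290 CPM at P60. Kcnj8 had the other order at P1 (1230 ± 93.5 against 1470 ± 67.7 CPM) and overlapped at P60 (868 ± 407 against 962 ± 348 CPM). Genes that vary with the members made these clusters, so these are descriptions.

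The change with age was tested on summed counts per library, with edgeR's quasi-likelihood test and p-values adjusted over all genes tested. In pericyte-like cells all 9 members were tested and 6 were called, 3 higher and 3 lower at P60. Over all genes, 1579 of 5908 were called (26.7%; 14.8% higher and 11.9% lower). Rgs5 rose by 0.52 on the log2 scale (SE 0.13, adjusted p = 0.0081), Rgs4 by 0.83 (SE 0.19, adjusted p = 0.0027) and Higd1b by 0.48 (SE 0.12, adjusted p = 0.0048). Cox4i2 fell by 0.72 (SE 0.14, adjusted p = 0.00087), Kcnj8 by 0.57 (SE 0.19, adjusted p = 0.034) and Ndufa4l2 by 0.39 (SE 0.13, adjusted p = 0.039). Abcc9 (-0.47, SE 0.18, adjusted p = 0.058), Cspg4 (0.50, SE 0.29, adjusted p = 0.23) and Vtn (-0.24, SE 0.14, adjusted p = 0.23) were not called. The libraries of the ages did not overlap for 6 of the 9 members, as for 39.8% of all genes tested. The call of Kcnj8 was lost in 6 of 17 other settings, among them without P1 replicate 1 (adjusted p = 0.057), P1 replicate 3 (0.078) or P60 replicate 2 (0.06), and that of Ndufa4l2 in 7, among them without P1 replicate 1 (0.11), 2 (0.052) or 3 (0.083). Rgs5 was not called without P1 replicate 2 (0.45, adjusted p = 0.065), and Abcc9 was called without P60 replicate 1 (-0.61, adjusted p = 0.025) or 3 (-0.64, adjusted p = 0.0056). Without P60 replicate 3, the change of Rgs5 was 0.30 and that of Kcnj8 -0.34, and both were called. With the mixed endothelial-mural cells, found at P60 only, counted as pericyte-like, Rgs5 was at -0.24 (adjusted p = 0.15) and Higd1b at -0.31 (adjusted p = 0.028) in place of their rise. In that setting 0 members were called higher and 6 lower, while 3344 of all 7830 genes tested were called (1841 higher and 1503 lower). Rgs4 was not called (0.39, adjusted p = 0.053), and Vtn was called lower (-1.41, adjusted p = 1.5e-07).

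Shares of pericyte-like cells with a UMI did not overlap between the ages for 5 members, 2 of them higher and 3 lower at P60, as for 29.1% of all genes. Higd1b went from 60.4% ± 3.33 to 79.3% ± 10.0 and Cspg4 from 7.02% ± 2.25 to 13.5% ± 2.02, while Cox4i2 went from 45.3% ± 2.43 to 31.7% ± 4.76, Ndufa4l2 from 87.8% ± 6.44 to 73.8% ± 6.60 and Rgs5 from 97.3% ± 1.68 to 93.1% ± 1.47 (exact permutation test over libraries, two-sided p = 0.1 for each, the smallest this design allows; 0.18 adjusted over the 9 members). The share of Rgs5 goes against its CPM, and no order is read from it. Without thinning, 6 members did not overlap, 0 higher and 6 lower at P60, and the difference was -24.6 points for Cox4i2 and -0.0216 points for Cspg4. The matching share over all genes was not computed without thinning. Pericyte-like cells had a median of 4453 UMIs at P1 and 3043 at P60, so no result about the members is read from this tally.

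In smooth muscle-like cells the same test called 7 of the 9 members, 4 higher and 3 lower at P60, and 1449 of 4055 genes in all (35.7%; 18.8% higher and 16.9% lower). Rgs4 rose by 3.16 (SE 0.20, adjusted p = 4.4e-08), Higd1b by 2.27 (SE 0.31, adjusted p = 4.7e-05), Cspg4 by 1.98 (SE 0.30, adjusted p = 0.00014) and Cox4i2 by 1.62 (SE 0.19, adjusted p = 1e-05). Kcnj8 fell by 4.65 (SE 0.37, adjusted p = 3.7e-07), Abcc9 by 2.84 (SE 0.43, adjusted p = 0.00014) and Rgs5 by 1.40 (SE 0.21, adjusted p = 0.00014). Ndufa4l2 (-0.14, SE 0.16) and Vtn (-0.58, SE 0.31) were not called (adjusted p = 0.55 and 0.16). The libraries of the ages did not overlap for 8 members, Ndufa4l2 being the exception, as for 47.6% of all genes tested. All 7 calls held without P60 replicate 3, where Rgs5 was at -1.10 and Kcnj8 at -4.49; without the cluster that replicate 3 mostly filled, 6 were called, Rgs5 was at -0.83 and Kcnj8 at -6.45, and Abcc9 had too few counts to be tested.

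**Figure D4:**
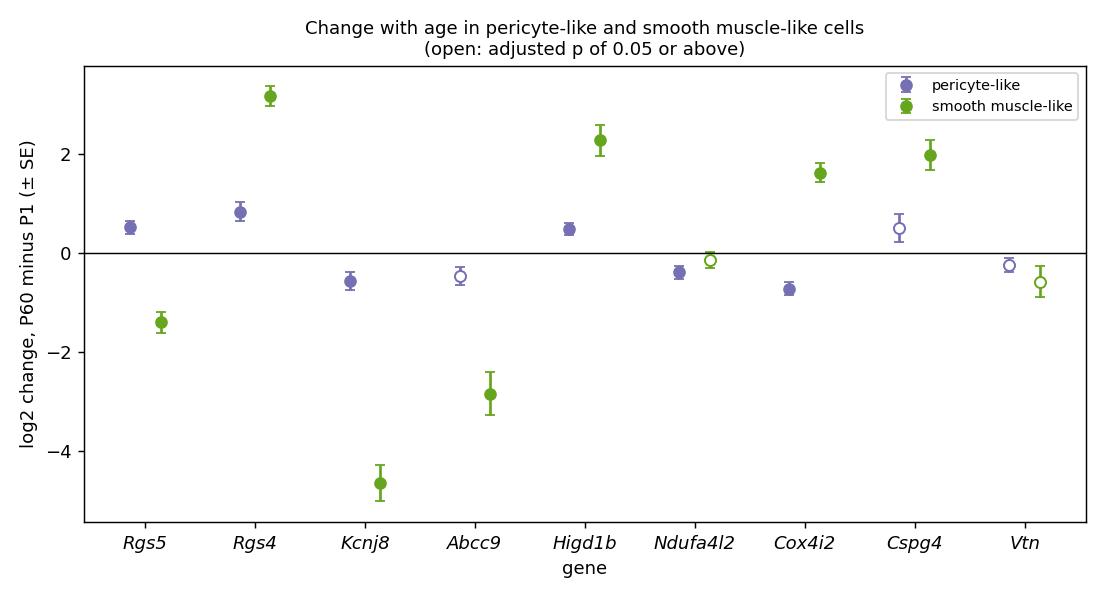
Log2 change from P1 to P60 of each gene in pericyte-like (purple) and smooth muscle-like cells (green), with the standard error of the edgeR fit as bars and open points where the adjusted p was 0.05 or above. Rgs5 and Cox4i2 moved in opposite directions in the classes, and Kcnj8 changed by -0.57 in pericyte-like and -4.65 in smooth muscle-like cells.

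Median mitochondrial counts of smooth muscle-like cells were 3.76% at P1 and 6.6% at P60. The summed level of the 7 perineurial markers in them was 4.47 to 21.4 CPM in P1 and 137 to 231 CPM in P60 libraries (4 of 7 at 0 at P1), that of the 8 immune markers 13.4 to 36.6 and 108 to 161 CPM, and that of the 7 Schwann markers 230 to 1380 and 36.8 to 78.8 CPM. The part of these markers was not tested. In cells with at most 10% mitochondrial counts all 7 calls held.

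Whether the change with age differed between the classes was tested directly, with the library as a term. The difference was called for 7 of the 9 members and for 713 of 6562 genes (10.9%; 5.84% above and 5.03% below 0). The change in pericyte-like cells minus that in smooth muscle-like cells was 3.95 for Kcnj8 (SE 0.34, adjusted p = 2.6e-10), 2.44 for Abcc9 (SE 0.47, adjusted p = 0.00035) and 1.92 for Rgs5 (SE 0.22, adjusted p = 5.7e-08). It was -2.36 for Cox4i2 (SE 0.19, adjusted p = 6.2e-11), -2.35 for Rgs4 (SE 0.27, adjusted p = 7.7e-08), -1.77 for Higd1b (SE 0.26, adjusted p = 5.9e-06) and -1.47 for Cspg4 (SE 0.37, adjusted p = 0.0058). Ndufa4l2 (-0.28, SE 0.13, adjusted p = 0.21) and Vtn (0.37, SE 0.23, adjusted p = 0.37) were not called. With cells thinned to 1500 UMIs the differences of Abcc9 (1.86, adjusted p = 0.15) and Cspg4 (-0.18, adjusted p = 0.92) were no longer called, and that of Cspg4 was also lost with DESeq2 (-1.56, adjusted p = 0.066) and without P1 replicate 2 (adjusted p = 0.054). Without the P60 cluster that replicate 3 mostly filled, the difference was 6.12 for Kcnj8 and 1.26 for Rgs5.

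The relatives of the members were taken from a list of 15 paralogues. Kcnj11 and Abcc8, which encode Kir6.2 and SUR1 of the other ATP-sensitive potassium channel, had 0 UMIs in pericyte-like cells at both ages, which allows at most 1.68 CPM at P1 and 3.13 CPM at P60 (3 UMIs). In P60 smooth muscle-like cells Abcc8 had 8, 5 and 10 UMIs in replicates 1, 2 and 3, or 14 CPM over the libraries (exact Poisson 95% interval 8.89 to 21.0, counting error only), against 0 UMIs of 648557 at P1, which allows up to 4.63 CPM over the libraries (3 UMIs). Kcnj11 had 4, 1 and 8 UMIs there, or 7.92 CPM (4.22 to 13.5), against 2 UMIs at P1. Both were too low to be tested.

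Ndufa4, the relative of Ndufa4l2, was at 101 ± 26.2 CPM at P1 and 152 ± 26.1 CPM at P60 in pericyte-like cells and at 437 ± 27.2 to 599 ± 3.47 CPM in P1 endothelial, fibroblast, Schwann and immune cells. It was the only relative called higher at P60 in smooth muscle-like cells, from 316 ± 25.2 to 642 ± 88.3 CPM (log2 change 1.16, SE 0.15, adjusted p = 2.3e-05), and was not called in pericyte-like cells (0.55, SE 0.22, adjusted p = 0.069). Cox4i1, the common form of subunit 4, fell in pericyte-like cells from 1840 ± 78.6 to 975 ± 108 CPM (log2 change -0.94, SE 0.12, adjusted p = 1e-05). It was at 879 ± 84.8 to 1640 ± 124 CPM in every other named class at P60. Its mean was also lower at P60 in endothelial cells (1350 to 960 CPM), fibroblasts (1610 to 879), Schwann cells (1360 to 890) and immune cells (1410 to 995). In smooth muscle-like cells it went from 1900 to 1520 CPM and was not called (adjusted p = 0.19). Rgs16 fell by 0.76 (SE 0.23, adjusted p = 0.022), from 198 ± 64.3 to 119 ± 17.5 CPM. This call was lost with DESeq2 (adjusted p = 0.056), with thinning (0.085) and without P1 replicate 2 (0.056) or 3 (0.12) or P60 replicate 2 (0.086). Higd1a was at 116 ± 15.4 and 126 ± 31.3 CPM (adjusted p = 0.79). Cspg5 had 1 UMI in P1 and 0 in P60 pericyte-like cells. Of the 15 relatives, 7 were tested in pericyte-like cells, and 0 were called higher and 2 lower (median log2 change -0.35). Over all genes tested, 14.8% were called higher and 11.9% lower (median 0.02).

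The other genes of the members' pathways were taken from lists. Of 17 other mural genes tested in pericyte-like cells, 9 were called higher and 2 lower at P60 (median log2 change 0.46). Over all genes tested there, 14.8% were called higher and 11.9% lower (median 0.02). Angpt1, a ligand of the endothelial receptor Tie2, rose by 2.52 from 8.99 CPM, Enpep, an angiotensin-cleaving aminopeptidase, rose by 2.44 to 125 CPM, and Notch3, the mural Notch receptor, rose by 1.29 to 581 CPM. Cd248 and Art3 fell by 0.73 and 0.69. The call of Cd248 was lost with DESeq2 (adjusted p = 0.093), with thinning (0.079) and without P1 replicate 1 (0.11) or 2 (0.063) or P60 replicate 2 (0.054). Enpep, Notch3, Art3 and Pdgfrb are in the marker lists by which the classes were named, and Angpt1 and Cd248 are not. In smooth muscle-like cells 2 of 14 such genes were called higher and 6 lower (median -0.44). Over all genes tested there, 18.8% were called higher and 16.9% lower (median -0.01).

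Of 12 tested genes of G protein signalling, 3 were called higher and 4 lower in pericyte-like cells (median 0.06), against 14.8% and 11.9% of all genes. Ednrb, an endothelin receptor, rose by 2.75 to 214 CPM, Adra2a, an adrenergic receptor, by 1.43 to 172 CPM and the inhibitory subunit Gnai1 by 1.33 to 122 CPM. Gnas, the stimulatory subunit, fell by 2.50 from 7270 CPM, P2ry14, a receptor of nucleotide sugars, by 2.30 from 365 CPM and S1pr3, a sphingosine phosphate receptor, by 2.22 from 97.6 CPM. With the mixed endothelial-mural cells counted as pericyte-like, Adra2a (0.15, adjusted p = 0.73) and Gnai1 (0.21, adjusted p = 0.58) were not called. P2ry14 is also in the marker list by which pericyte-like cells were recognised. In smooth muscle-like cells Gnas and Gnai3 were the 2 of 8 such genes called, both lower, against 16.9% of all genes called lower. Gnas was at -2.00 (SE 0.12, adjusted p = 2.9e-08).

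Of 7 hypoxia genes tested, 1 was called higher and 1 lower in pericyte-like cells (median 0.18), against 14.8% and 11.9% of all genes. Epas1, which encodes HIF-2 alpha, changed by 1.90 to 344 CPM (SE 0.24, adjusted p = 1.2e-05) and the glycolytic gene Pgk1 by -0.66 (SE 0.21, adjusted p = 0.025). The call of Pgk1 was lost in 6 of 17 other settings, among them DESeq2 (adjusted p = 0.11) and leaving out P1 replicate 1 (0.059) or 2 (0.074) or P60 replicate 3 (0.06), while that of Epas1 was lost in 0. Epas1 was also called higher in smooth muscle-like cells (1.28, SE 0.20, adjusted p = 0.00015). There 3 of 6 such genes were called higher and 1 lower (median 0.02), against 18.8% and 16.9% of all genes. A link of these genes to the changes of the members was not tested. Of 6 adhesion genes and vitronectin partners tested in pericyte-like cells, Pdgfrb was called higher (0.39, adjusted p = 0.041) and Col6a1 lower (-0.41, adjusted p = 0.047). The shares over all genes were again 14.8% and 11.9%. The call of Pdgfrb was lost in 11 of 17 other settings, among them DESeq2 (adjusted p = 0.13) and leaving out any P1 library (0.12 to 0.17) or P60 replicate 1 (0.055) or 3 (0.14), and that of Col6a1 in 7, among them DESeq2 (0.17) and leaving out any P1 library (0.051 to 0.13) or P60 replicate 2 (0.17). By the same test the vitronectin receptor subunits Itgav (-0.75, adjusted p = 0.14) and Itgb5 (0.29, adjusted p = 0.49) were not called.

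Outside mural cells, 3 members reached high levels in particular clusters, which were picked after their values were seen. Kcnj8 stood at 277 to 293 CPM in the libraries of P1 cluster 0, a fibroblast cluster of 1987 cells led by Ly6a, Sfrp2 and Pi16, and was found in 32.2% ± 3.17 of its cells after thinning, against 0.382% ± 0.333 of P1 immune cells. In the other P1 fibroblast clusters it was between 9.01 ± 0.387 and 95.7 ± 6.67 CPM, and in P60 fibroblast clusters at most 21.6 ± 6.58 CPM. Abcc9 was at 20.9 ± 0.857 CPM in P1 and 12.2 ± 1.83 CPM in P60 fibroblasts. With fibroblasts and perineurial cells summed, the edgeR test between the ages, added after the data had been seen, called 4 of the 9 members, 2 higher and 2 lower at P60, and 59.8% of all genes (31.0% higher and 28.8% lower). Of the 2 called higher, Higd1b lay at 2.90 ± 1.04 CPM at P60, within the range of immune cells (2.16 to 3.61 CPM).

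Vtn and Cspg4 stood out in perineurial cells, which form the sheath around the nerve fascicle. Clusters took that name at P60 only, and any such cells at P1 were counted with fibroblasts. Vtn was at 697 ± 125 CPM in perineurial cluster 2, of 1975 cells, and at 687 ± 191 CPM in perineurial cluster 9, of 476 cells with 13.0% mitochondrial counts. After thinning 54.9% ± 6.33 of perineurial cells held it, and the perineurial libraries (544 to 793 CPM) overlapped the P60 pericyte-like ones (754 to 1134 CPM). Cspg4 was at 340 ± 43.4 CPM in cluster 9, where 40.3% ± 1.40 of cells held it, and at 32.8 ± 11.1 CPM in cluster 2. Among P60 fibroblasts, the cluster led by Angptl7 and Apod had the highest Cspg4 (108 ± 15.7 CPM), Vtn (200 ± 65.5 CPM) and Ndufa4l2 (77.3 ± 13.1 CPM). At P1, 701 cells with 18.5% mitochondrial counts that stayed unnamed had Cspg4 at 296 ± 20.3 CPM. The unnamed P60 mural cells, with a median of 24.9% mitochondrial counts, had Cspg4 at 346, 214 and 407 CPM, from 5, 9 and 139 UMIs. These cells and cluster 9 had higher mitochondrial shares than the medians of the named classes (2.57% to 6.6%), and the part of this in their level of Cspg4 was not tested.

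**Figure D5:**
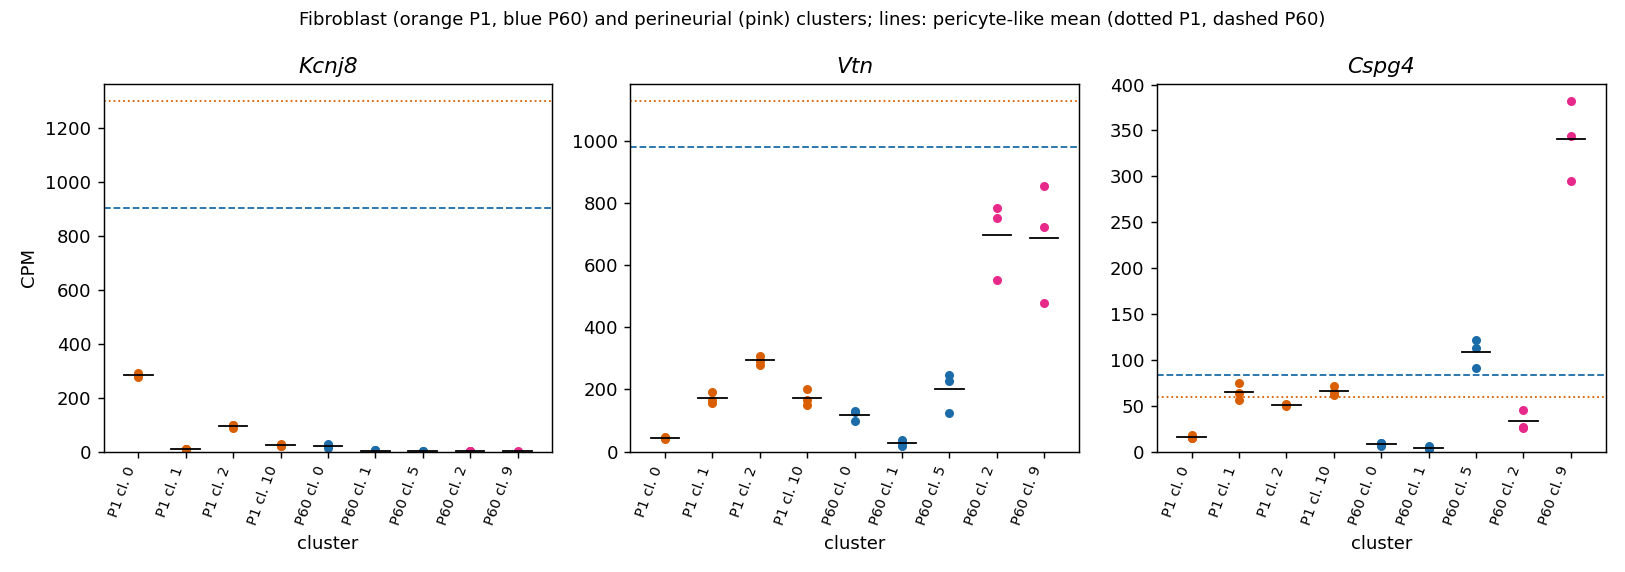
Level in CPM of Kcnj8, Vtn and Cspg4 in fibroblast clusters (orange P1, blue P60) and perineurial clusters (pink), with 1 point per library, a bar at their mean and lines at the pericyte-like mean (dotted P1, dashed P60). Cspg4 in perineurial cluster 9 (295 to 382 CPM) lies above the pericyte-like mean of both ages, and Kcnj8 is highest in P1 cluster 0.

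The genes whose level followed the mean of the members most closely over 39 sums of 1 class in 1 library were Heyl, a target of Notch (r = 0.986), Stac (r = 0.961), Gucy1b3, a subunit of the nitric oxide receptor (r = 0.958), Lin7a (r = 0.957) and Tusc5 (r = 0.951), among the genes with at least 20 CPM in pericyte-like cells. Heyl and Gucy1b3 are in the marker lists by which the classes were named. Rgs5, Ndufa4l2, Higd1b and Cox4i2 themselves had r of 0.959 to 0.965 and Cspg4 0.674, and Kcnj8 and Abcc9 had r = 0.973 with each other. These correlations describe classes and libraries that share depth and cell type, and carry no test.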

How the data were processed

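Single-cell RNA was captured from 3 suspensions per age with the 10x Chromium Single Cell 3' v2 kit. The authors deposited raw UMI counts per gene and barcode, after Cell Ranger 2.0.2 had called cells. They are not normalised or pooled. The submitters' processing notes name GRCm38.p5, while the study's methods name a human build. The identifiers are those of mouse genes, and whether counting used the strand is not given in the sources used here. Cells with 500 to 5000 genes were kept. Each age was clustered in Seurat 5.3.0 (10 principal components, resolution 0.5 at P1 and 0.4 at P60), with the 9 members removed from the variable genes and from every marker list, and mural cells were clustered again (resolution 0.5). A cluster was named from at least 3 markers (5 for mural cells) that were 2-fold over the median of the clusters and in at least 10% of its cells. Clusters with over 18% mitochondrial counts stayed unnamed. In the second clustering, pericyte and smooth muscle markers were compared with non-mural cells, and other markers with the remaining mural cells. Clusters with cycle, endothelial or fibroblast markers were held apart. Of the rest, those whose 11 smooth muscle markers summed to over 20000 CPM were called smooth muscle-like. Others with at least 3 pericyte markers were called pericyte-like. The smooth muscle-like clusters had 6 pericyte markers as well, so the smooth muscle sum alone split these classes. These thresholds were set after the data had been seen. No doublet caller was run, and clusters with markers of 2 lineages were held apart.

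Counts were summed per class and library and tested with edgeR 4.0.16 (quasi-likelihood, TMM, filterByExpr, R 4.3.3), with Benjamini-Hochberg adjustment over all genes tested and a threshold of 0.05; the difference of age changes had the library as a term. The tests were checked on simulated data. For age in pericyte-like cells, 94.4% of simulated log2 changes of 2 and 29.7% of those of 1 were recovered. For the difference of age changes these were 62% and 7%. The simulation used a fixed spread between libraries and drew the changed genes from all those above a low count. Its rates are therefore not those of the members. A member that was not called is not read as unchanged. DESeq2 1.42.0, other filters, other cell sets and leaving out each library were alternatives. Intervals and floors (3 UMIs) cover counting error only. The labels call the libraries biological replicates. The members and gene lists were chosen with earlier results of these data known, so no call of theirs is independent evidence. The text names all members, the direct paralogue of each, at most 3 genes per list and direction with the largest change among those called in pericyte-like cells, and the 5 genes whose log2(CPM + 10) had the highest Pearson correlation with the mean of the members. Genes outside that rule (Gnai3, Itgav, Itgb5, and Gnas and Epas1 in smooth muscle-like cells) were named after their values were seen.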

Additional observations from a re-analysis of the deposited data

Results flagged for a closer look

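The change from P1 to P60 differed between pericyte-like and smooth muscle-like cells for 7 of the 9 genes by the test of the difference itself (edgeR's quasi-likelihood test, adjusted p under 0.05, as for 10.9% of all genes tested). On the log2 scale, pericyte-like minus smooth muscle-like, the difference was 1.92 for Rgs5, 3.95 for Kcnj8 and 2.44 for Abcc9, which fell further in smooth muscle-like cells or, for Rgs5, rose in pericyte-like cells and fell in smooth muscle-like cells. It was -2.35 for Rgs4 and -1.77 for Higd1b, which rose in both classes and by more in smooth muscle-like cells, -2.36 for Cox4i2, which rose in smooth muscle-like and fell in pericyte-like cells, and -1.47 for Cspg4, which rose in smooth muscle-like cells and was not called in pericyte-like cells. P60 replicate 3 supplied 157 of the 186 cells of 1 of the P60 smooth muscle-like clusters, and all 7 differences were called without that cluster and without that replicate. With cells thinned to 1500 UMIs, Abcc9 (1.86, adjusted p = 0.15) and Cspg4 (-0.18, adjusted p = 0.92) were no longer called, and Cspg4 was also lost with DESeq2 (-1.56, adjusted p = 0.066) and without P1 replicate 2 (adjusted p = 0.054).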

How the results depend on the processing

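Of 17 other settings, Cox4i2 was called lower in pericyte-like cells in all, and the 7 calls in smooth muscle-like cells held wherever the gene could be tested. All genes called in pericyte-like cells numbered 1579, but 1036 with DESeq2 and 765 of 2850 tested with cells thinned to 1500 UMIs. With mixed endothelial-mural cells counted as pericyte-like they numbered 3344 of 7830 tested. In smooth muscle-like cells thinning gave 613 of 1704 in place of 1449. Leaving out each library gave 4 to 7 members called in pericyte-like cells (1200 to 1691 genes), 7 in smooth muscle-like cells (1174 to 1451 genes) and 6 to 7 for the difference. Kcnj8 and Ndufa4l2 missed the threshold in pericyte-like cells with DESeq2 (adjusted p = 0.067 and 0.12) and with thinning (0.17 and 0.39), and Higd1b did without a filter on low counts (0.34, adjusted p = 0.11). With the mixed cells counted as pericyte-like (chosen after seeing the data), the sign turned for Rgs5 (-0.24), Higd1b (-0.31), Cspg4 (-0.15), Pdgfrb (-0.07), Gucy1b3 (-0.41) and Higd1a (-0.07), and for the difference of Vtn (-0.79). Higd1a, not called, also turned without a filter (-0.05), with thinning (-0.03) and without P1 replicate 3 (-0.04) or P60 replicate 1 (-0.05), within a range of -0.05 to 0.22 as each library was left out. Ndufa4l2 in smooth muscle-like cells turned to 0.04 without P60 replicate 3 (range -0.29 to 0.04 over the libraries left out) and to 0.13 without the cluster it mostly filled, an alternative chosen after seeing the data that also turned the difference of Vtn to -0.23 (0.08 to 0.53 over the libraries left out). In fibroblasts, Vtn turned to -0.83 without perineurial cells. The causes were not tested.

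The labels do not say that libraries of the same number at P1 and P60 are paired. Their deviations from the mean of their age correlated by 0.002, 0.049 and 0.016, and those of unlike numbers by -0.03 to 0.012. Whether libraries of the same number share a batch was not tested. With the replicate block, 7 members and 1722 genes were called in pericyte-like cells and 8 members and 1640 genes in smooth muscle-like cells. Depth limits Kcnj8 and Abcc9 in P60 smooth muscle-like cells, which rest on 9 and 10 UMIs, and shares of cells with a UMI, which without thinning differed by -21.6 points for Abcc9 and 5.97 points for Higd1b between the ages.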

Other observations

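Fibroblasts and perineurial cells together, compared between the ages after the data had been seen, changed in 4 of the 9 genes by edgeR's quasi-likelihood test, 2 higher and 2 lower at P60, while 59.8% of the 14602 genes tested were called. Kcnj8 fell by 3.88 on the log2 scale (SE 0.29, adjusted p = 4e-06), from 109, 120 and 119 CPM at P1 to 9.84, 9.40 and 3.79 CPM at P60. Abcc9, its channel partner, fell by 1.37 (SE 0.12, adjusted p = 9.8e-06), from 20.9 ± 0.857 to 8.08 ± 0.833 CPM (SD, n = 3 libraries). Vtn rose by 0.98 (SE 0.16, adjusted p = 0.00057), from 161 ± 7.15 to 316 ± 66.3 CPM. Higd1b was also called higher (1.77, SE 0.36, adjusted p = 0.0023), at 2.90 ± 1.04 CPM, but the immune cells of the same P60 libraries held 3.56, 3.61 and 2.16 CPM of it, against 1.84, 0.40 and 0.37 CPM at P1, and the value is read as background.

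With perineurial cells left out, 6 of the members were called. The share called over all genes was not computed for this setting and was 59.8% with perineurial cells included, so the count is not read as a result. Higd1b, read as background above, was at 1.65 (adjusted p = 0.029). Kcnj8 was at -3.26 and Abcc9 at -0.71, Vtn was lower at P60 (-0.83, adjusted p = 0.0046) in place of higher, Cspg4 was lower (-1.35, adjusted p = 4.3e-05) and Ndufa4l2 higher (0.94, adjusted p = 0.0018). Cells named perineurial were found at P60 only, so the makeup of the compared cells differs between the ages.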
